A study of Homo sapiens with 6 samples.

Results

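HEK293T is a transformed cell line derived from human embryonic kidney. Of the 47470 genes listed for it, 98 had a count of 0 in all 3 untreated libraries and at least 2 counts in each of the 3 libraries of cells kept in 1 mM valproic acid (VPA) for 1 day. These are the silent genes detected after VPA described here, and genes whose symbols begin with KCN or LINC or contain -AS were left out by the same rule. The members were thus chosen by their raw counts in the very libraries that are compared. So the difference of these 98 genes between conditions is a description, given without a test. Measurements that the rule did not read, such as the behaviour of their neighbours, their relatives and the sequence at their start sites, are compared further on.

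Both groups are HEK293T cells labelled as wild type or only by their VPA treatment, and no vehicle is named for the untreated cells. The labels do not say whether the 3 libraries of a group came from separate cultures, so a p-value measures the spread between these libraries, which may be technical. Raw counts per gene were analysed, and the totals on genes lay between 18622267 and 18828495 per library, so depth hardly differed. Of the listed markers of the line, VIM had 10168 to 10412 counts in untreated and 9082 to 9529 in VPA-treated libraries. Of 8 listed markers of mature kidney segments, 2, among them UMOD, were at 0 in all 6 libraries. LRP2 from the same list had 806, 850 and 933 counts in untreated and 1518, 1533 and 1545 in VPA-treated libraries. Every gene of the X, Y and mitochondrial chromosomes is listed at 0 in all 6 libraries, so none of them could enter.

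VPA inhibits histone deacetylases, enzymes that remove acetyl groups from histone tails as parts of larger corepressor complexes. Lysine acetylation loosens chromatin and recruits the transcription machinery, and its removal helps to keep genes of other lineages off. A gene can also be held silent by Polycomb proteins, by methylation of histone H3 lysine 9 or by methylation of CpG dinucleotides at its promoter.

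The 4 members with the most reads encode a sodium channel, an adhesion molecule, a vesicle protein and a protease. Their promoter windows are shown because the SV2C window is far richer in CpG dinucleotides than those of SCN1A, DSG3 and KLK4. Each runs from 250 bases before to 50 bases after a start site in RefSeq on GRCh38.p14, 5′ to 3′ on the strand of the gene. Capitals mark matches to 4 motifs searched on both strands, which were TATAAA (the TATA box), GGGCGG (the GC box), TGACGT (the core of a cyclic AMP response element) and CACGTG (the E-box). The SCN1A window is at chr2:166127971-166128270 on the minus strand. The DSG3 window is at chr18:31447491-31447790 on the plus strand. The SV2C window is at chr5:76083133-76083432 on the plus strand, and the KLK4 window at chr19:50910689-50910988 on the minus strand.
SCN1A: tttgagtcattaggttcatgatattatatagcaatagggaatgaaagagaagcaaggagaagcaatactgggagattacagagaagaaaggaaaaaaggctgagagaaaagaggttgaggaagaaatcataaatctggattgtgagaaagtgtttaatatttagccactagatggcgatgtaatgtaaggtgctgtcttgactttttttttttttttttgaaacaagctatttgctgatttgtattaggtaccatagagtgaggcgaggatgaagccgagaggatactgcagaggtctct
DSG3: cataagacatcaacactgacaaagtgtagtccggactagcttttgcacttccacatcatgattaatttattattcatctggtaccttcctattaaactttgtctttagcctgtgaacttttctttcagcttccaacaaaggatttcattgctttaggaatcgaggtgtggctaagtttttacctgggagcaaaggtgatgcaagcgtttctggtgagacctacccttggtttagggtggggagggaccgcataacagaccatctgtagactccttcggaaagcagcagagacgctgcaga
SV2C: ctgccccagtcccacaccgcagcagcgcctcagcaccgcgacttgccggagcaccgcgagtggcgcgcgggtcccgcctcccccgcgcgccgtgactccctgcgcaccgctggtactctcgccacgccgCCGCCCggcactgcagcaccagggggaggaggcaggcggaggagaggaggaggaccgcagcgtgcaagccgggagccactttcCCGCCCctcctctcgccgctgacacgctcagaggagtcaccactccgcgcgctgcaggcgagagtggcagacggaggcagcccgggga
KLK4: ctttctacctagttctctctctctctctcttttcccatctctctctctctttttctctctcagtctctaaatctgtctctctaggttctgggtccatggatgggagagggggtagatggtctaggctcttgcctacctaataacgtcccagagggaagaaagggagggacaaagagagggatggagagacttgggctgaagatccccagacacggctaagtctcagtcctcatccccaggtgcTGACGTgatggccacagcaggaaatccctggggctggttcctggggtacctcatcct
The SV2C window held 36 CpG dinucleotides, was 74.3% G and C, and had 2 GC boxes, read here on the opposite strand as CCGCCC. The SCN1A window held 3 CpGs at 37.0% G and C, the DSG3 window 6 at 44.0%, and the KLK4 window 3 at 52.7%. KLK4 had 1 TGACGT, and SCN1A and DSG3 had none of the 4 motifs. The windows of SCN1A, SV2C and KLK4 lie at starts inside the annotated span of the gene, so other starts of the same genes have other sequence.

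SCN1A, the pore-forming alpha subunit of a voltage-gated sodium channel that inhibitory neurons rely on, had 32, 27 and 32 counts in the VPA-treated libraries and 0, 0 and 0 in the untreated libraries. It spans chr2:165984641-166149161 on the minus strand. Its mean was 30.3 ± 2.89 counts (SD, n = 3). Scaled to library totals, its sum was 30.5 times a limit of 3 counts for the untreated group. DSG3, a desmosomal cadherin of stratified epithelium at chr18:31447741-31478702, had 20, 16 and 14 counts, or 16.8 times that limit. SV2C, a synaptic vesicle glycoprotein at chr5:75847464-76353939, had 18, 16 and 13, or 15.8 times the limit. KLK4, a secreted serine protease of prostate and developing enamel at chr19:50906351-50911395, had 19, 17 and 10, or 15.4 times. These ratios take the VPA-treated sums as exact and make no allowance for the choice of genes at 0, so they are not lower bounds. In these 4 genes the lowest VPA-treated library stood at 10 counts or above, and no other member reached 10 in each library.

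The remaining members were much sparser. The median member had a mean of 4.17 counts per VPA-treated library, 36 members had a mean of 5 or more and 62 less. Raising the requirement from 2 to 3 counts in each VPA-treated library left 51 genes, 5 counts left 19 and 10 counts left 4. BETALINC1, LOC107986249, SI, PRR15L and RPH3A stood exactly at 2, 2 and 2. Just outside, 82 genes had 0 in untreated libraries and at least 6 VPA counts in sum but only 1 in the lowest library. LOC107986904 with 1, 16 and 5 counts, LOC105378180 with 7, 7 and 1, NPAS4 with 1, 5 and 6, IFI44 with 3, 1 and 7 and LOC105369306 with 3, 1 and 7 were among those with the largest sums. At these levels, a count of 0 means not detected at this depth rather than absent, since 0 in the 3 untreated libraries allows up to 3 counts, or 0.0532 CPM (counts scaled to a common library total).

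**Figure D1:**
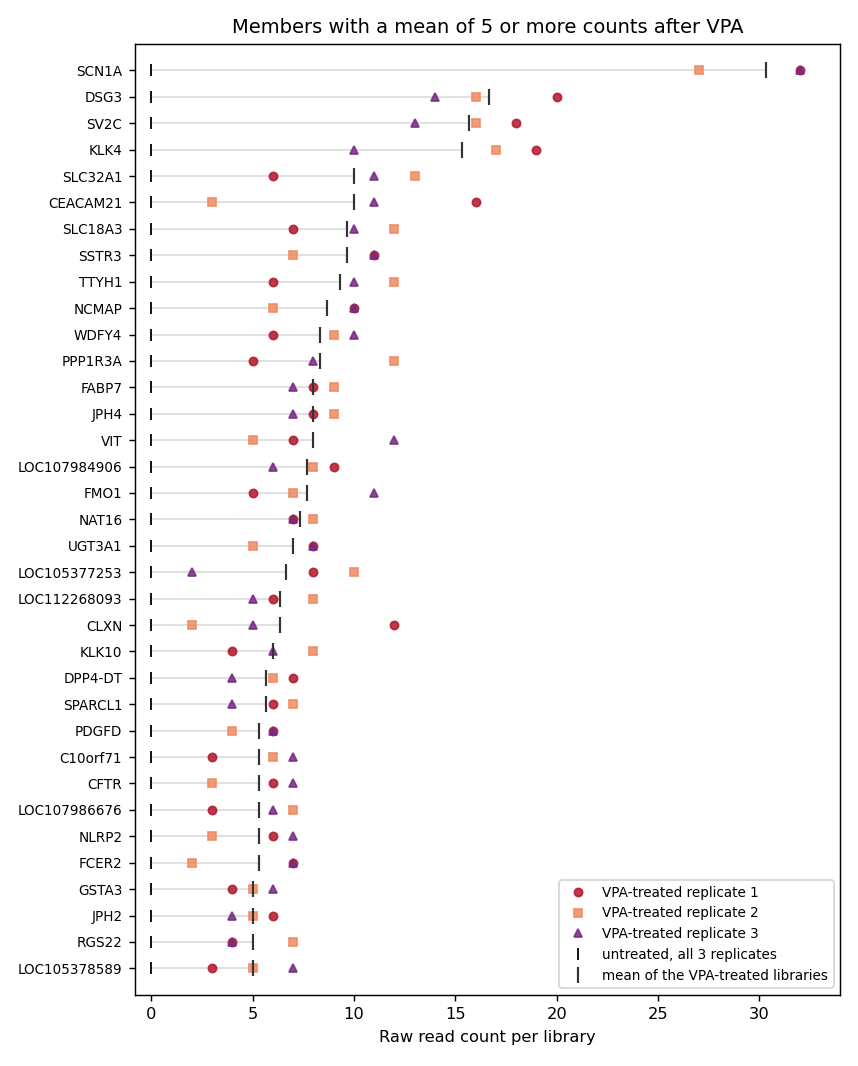
Raw read counts of 35 of the 36 members with a mean of 5 or more counts in the VPA-treated libraries, with 1 symbol per library, a tick at the mean and a tick at 0 for the untreated libraries. SCN1A stands apart at 27 to 32 counts, while most others lie under 13 and their libraries spread widely, as in CEACAM21 with 16, 3 and 11.

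The 3 VPA-treated libraries contributed to the members in near-equal parts. Together they had 497, 502 and 525 counts, which is 26.6, 27.0 and 28.1 CPM. The first library was the strictly highest for 22 members, the second for 25 and the third for 29. For single genes the spread was often wide, and in 15 members the highest VPA-treated library had at least 3 times the count of the lowest. The variance over the mean was above 1 in 20 of the 98 and had a median of 0.464. The rule asks for at least 2 counts in every VPA-treated library, which limits how uneven a member can be. These values therefore describe the members and do not measure the spread between libraries.

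The reverse pattern was rare. Only 4 genes had 0 in every VPA-treated library and at least 2 in each untreated library. They were CARNS1, which makes carnosine, with 4, 2 and 3 untreated counts, LOC124901408 with 3, 3 and 2, P4HTM, a transmembrane prolyl hydroxylase, with 3, 2 and 2, and TMA7B with 3, 2 and 2. Under the stricter requirement of 3 counts in each library, 51 genes were found in the direction of VPA and 0 in the reverse.

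By gene type, 67 members were protein-coding, 28 were long non-coding RNAs, and a V segment (TRAV3), a pseudogene (ANKRD62P1-PARP4P3) and a tRNA gene (TRP-AGG2-7) made up the rest. Protein-coding genes were 68.4% of the members and held 76.3% of their counts. They were 42.0% of all listed genes and 21.4% of the 21490 genes at 0 in untreated cells whose symbols the rule keeps. Those 21490 include the X, Y and mitochondrial genes, which could not enter. All 6 members with a mean of 10 or more counts were protein-coding, as were 24 of the 30 with a mean from 5 to under 10.

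Sorted by the tissue each gene is best known from, the protein-coding members covered nervous tissue, epithelia, muscle, blood and liver. This sorting was made by hand with the members known, and it put the V segment TRAV3 with the blood genes. Genes of neurons and synapses were 14 members and 23.8% of the member counts, with 114, 122 and 127 counts in the VPA-treated libraries. Those of skin, glands and lining epithelia were 15 members with 94, 75 and 91 counts. Blood and immune genes were 9 members with 39, 38 and 41, striated muscle genes 6 members with 23, 37 and 38, and liver and kidney enzymes 4 members with 24, 25 and 32. The 20 other protein-coding members had 86, 73 and 91, and the 30 remaining non-coding members 117, 132 and 105.

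**Figure D2:**
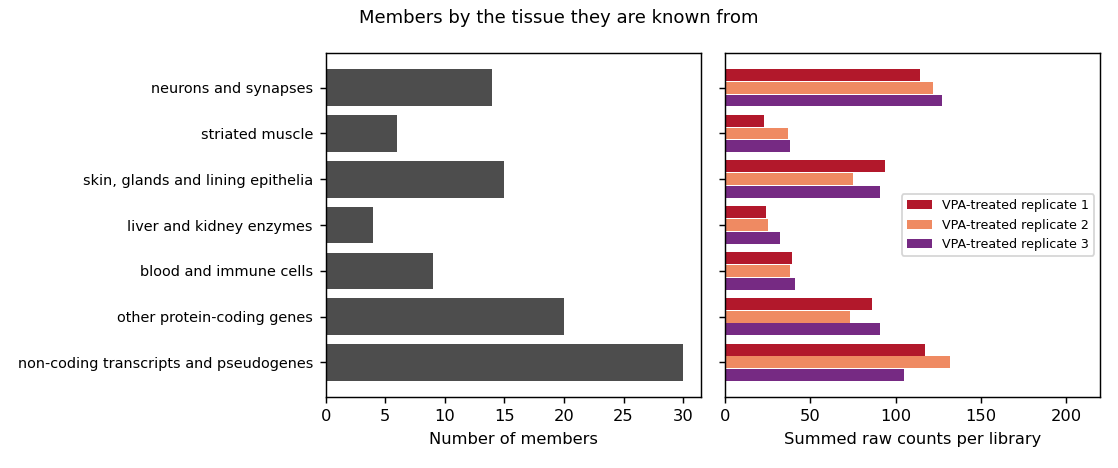
Number of members in each hand-sorted group (left) and their summed raw counts in each VPA-treated library (right), all of them 0 in the untreated libraries. The 14 neuronal members had 363 counts in sum and the 30 non-coding members 354, and no group was carried by 1 library.

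The neuronal members included parts of the machinery that loads transmitter into synaptic vesicles. SLC32A1, the vesicular transporter of GABA and glycine, had 6, 13 and 11 counts. SLC18A3, the vesicular transporter of acetylcholine, had 7, 12 and 10. This gene lies inside an intron of CHAT, which makes acetylcholine, and CHAT itself had 0, 0 and 1 counts in untreated and 5, 2 and 3 in VPA-treated libraries. GAD1, which makes GABA, was already counted in untreated cells at 215, 207 and 209 and stood at 254, 240 and 270 with VPA, a difference that did not pass the test (log2 fold change 0.15, edgeR adjusted p = 0.108). SLC17A7, the vesicular transporter of glutamate and a family relative, went from 43, 27 and 34 to 162, 179 and 154 (log2 fold change 2.13 ± 0.147 SE, edgeR adjusted p = 5.22e-11).

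Other neuronal members act at the membrane or in glia and progenitors. SSTR3, a somatostatin receptor of neuronal cilia, had 11, 7 and 11 counts, and TTYH1, a membrane protein of brain, had 6, 12 and 10. JPH4, which holds neuronal endoplasmic reticulum to the plasma membrane, had 8, 9 and 7, and FABP7, a fatty acid binding protein of radial glia, had the same 8, 9 and 7. The adhesion gene LINGO2 had 4, 3 and 2. The other neuronal members, with sums of 6 to 12 counts, were ATCAY, the sialyltransferase gene ST8SIA2, the forebrain homeobox gene GSX2, OLFM3 and RPH3A, whose product binds Rab proteins on vesicles. Of 5 general neuron markers, RBFOX3, SNAP25 and SLC17A7 were called higher, GAD1 was not, and SYP, an X-linked gene, is listed at 0. Their sum was 260 to 282 counts in untreated and 536 to 546 in VPA-treated libraries, so neuronal transcripts were present before treatment.

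Epithelial members ranged from skin to gut. CEACAM21, of the carcinoembryonic antigen family, had 16, 3 and 11 counts, the widest spread among the 6 leading members. KLK10, a kallikrein protease 101344 bp from KLK4, had 4, 8 and 6, and CFTR, the chloride channel lost in cystic fibrosis, had 6, 3 and 7. TSPAN8, an epithelial tetraspanin, had 2, 3 and 9, and the chemokine gene CXCL14 had 3, 3 and 7. The others, with sums of 6 to 14 counts, were FOXA2, a pioneer transcription factor of endoderm, EDAR, a receptor in hair follicle and tooth formation, A2ML1, ATP6V0A4, B3GNT6, the bile acid transporter subunit SLC51B, PRR15L and the intestinal sucrase-isomaltase SI. Although DSG3 is a defining adhesion gene of keratinocytes, KRT5, KRT14 and IVL were at 0 in all 6 libraries. In a bulk sample, a few cells with much RNA of a gene and many cells with little cannot be told apart.

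Muscle members included genes of calcium release and of glycogen, and others with neither role. PPP1R3A, which brings a phosphatase to glycogen in skeletal muscle, had 5, 12 and 8 counts. C10orf71, a gene of heart and skeletal muscle, had 3, 6 and 7. JPH2, the junctophilin of heart muscle, had 6, 5 and 4, with lower counts for TRDN, a partner of the calcium release channel, and for MLIP. In PPP1R3A and C10orf71 the first library was the lowest, and in JPH2 the third. Among 4 general muscle markers DES was called higher, from 5, 9 and 5 to 40, 33 and 40, whereas MYH7 had 0 to 1. ACTA1, the skeletal muscle actin, had 37, 36 and 22 in untreated and 23, 24 and 22 in VPA-treated libraries (log2 fold change -0.58, edgeR adjusted p = 0.0334), too small a change to be called. The marker sum went from 28 to 47 up to 66 in each VPA-treated library.

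The 4 members sorted by hand as liver and kidney enzymes had 4 to 11 counts per VPA-treated library. FMO1, a flavin monooxygenase of kidney, had 5, 7 and 11 counts, and NAT16, an acetyltransferase gene, had 7, 8 and 7. UGT3A1, a sugar transferase for small molecules, had 8, 5 and 8, and GSTA3, a glutathione transferase of steroid synthesis with near-identical relatives, had 4, 5 and 6. ALB, APOA1 and TTR, the hepatocyte markers, summed to 0 to 3 in untreated and 1 to 2 in VPA-treated libraries.

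Blood and immune members belonged to several lineages. WDFY4, a gene of antigen cross-presentation in dendritic cells, had 6, 9 and 10 counts. FCER2, the low-affinity IgE receptor of B cells, had 7, 2 and 7, and NLRP2, of the inflammasome receptor family, had 6, 3 and 7. CD53, a leukocyte tetraspanin, had 3, 7 and 3, and PTPRC, the tyrosine phosphatase CD45 of all leukocytes, had 5, 4 and 3. CCL2, a monocyte chemokine, had 3, 4 and 3. CD79B and TRAV3 were lower, at 2 to 3 counts. HBA1 had 4, 5 and 2, while HBA2, its near-identical copy, was at 0 in all 6 libraries, and reads that could not be placed uniquely were set aside by the counting. CD3E had 1 count in a single VPA-treated library. The 5 immune markers together had 19 to 35 counts in untreated and 38 to 50 in VPA-treated libraries, and not all of these counts came from PTPRC, since CD14 was counted in both conditions. The part of other cells in these members was not tested.

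The other protein-coding members had no shared tissue. NCMAP, a membrane protein of myelinating Schwann cells, had 10, 6 and 10 counts, VIT, a matrix protein, had 7, 5 and 12, and CLXN, a calcium sensor of ciliary dynein, had 12, 2 and 5. SPARCL1, a matricellular protein, had 6, 7 and 4, PDGFD, a platelet-derived growth factor, had 6, 4 and 6, and RGS22, a regulator of G protein signalling, had 4, 7 and 4. TRIM43, a gene of the cleavage-stage embryo with near-identical copies, had 3, 3 and 4, and TTC29, a sperm flagellum gene, had 5, 2 and 2. The rest were SLC28A3, ME3, OR2I1P, LOC105377864, HPSE2, RBPJL, CHP2, CDC14C, IMPG1, LEFTY2, APOL4 and PCDHB6, and of these CDC14C, LEFTY2, APOL4 and PCDHB6 also have close copies.

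Of the 98 members, 22 are listed under a LOC number. LOC124903716 is named ZFHX3-AS3 in RefSeq by its gene ID, and it entered because the rule reads the listed symbol. The 5 with the most counts were LOC107984906 with 9, 8 and 6, LOC105377253 with 8, 10 and 2, LOC112268093 with 6, 8 and 5, LOC107986676 with 3, 7 and 6 and LOC105378589 with 3, 5 and 7. The other LOC loci had means of 2 to 4.67 counts. Among the named non-coding genes, DPP4-DT, transcribed away from the DPP4 promoter, had 7, 6 and 4 counts. HAR1A, a fast-evolving RNA gene of developing cortex, MIR1-1HG, the host of a muscle microRNA, PART1, SOCS3-DT, FIGNL2-DT and BETALINC1 had fewer. Per kilobase of transcript, available for 75 members, the mean VPA count had a median of 1.74 and ran from 0.211 in LINGO2 to 10.9 in FIGNL2-DT. KLK4 stood at 10.8 counts per kilobase and SCN1A, with its long transcript, at 2.35. The order of members per kilobase therefore differed from that by raw counts.

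Relatives of the members, where they had enough counts, could be tested. A gene counts as called here when edgeR's quasi-likelihood test gave it an adjusted p below 0.05 and it changed 2-fold or more, that is by 1 on the log2 scale. By this measure 12.0% of the 15298 tested genes were called higher and 0.503% lower with VPA. Only 4 members passed the filter on low counts. Those 4 and, without the filter, all 98 were called higher against 9.56% of 26353 genes, which the rule itself had fixed. By symbol, 47 of the 98 members fell in 17 named classes, and the other genes of these classes were called higher in 1007 of 4852 tested (20.8%). The remaining members lay in 2 catch-all classes, 29 among unclassified genes and 22 among LOC loci. There 707 of 8941 and 102 of 931 tested relatives were called higher, both under the 12.0% of all tested genes. The 20.8% therefore does not describe relatives of the members as a whole. Calls depend on count level, with 29.2% of all tested genes under a mean of 50 counts called higher and 7.63% of those with 50 or more. The class relatives were not divided by count level.

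Among classes with several members, 85 of 217 tested genes of the matrix and its proteases were called higher, led by MMP2, a gelatinase (log2 fold change 3.21), and HAPLN3, a hyaluronan link protein (1.63). Of the cytokines, growth factors and their receptors 112 of 292 were called higher, with SEMA6B, a semaphorin (2.45), among those of smallest p. Of the immune surface genes 38 of 104 were called, with CD24 (4.52, a gene with copies) and HLA-F (2.01) leading, and of the adhesion genes 71 of 213, with NFASC (3.35) and CNTN1 (2.19), both of axons. Transporters had 79 of 342, with the lipid transporter gene ABCA3 (1.25) among them, and drug, steroid and lipid enzymes 49 of 214, led by the retinoic acid binding protein CRABP2 (2.51) and ALDH1A1 (3.40). Signalling proteins had 111 of 729, with GNAO1 (3.03) and PRKCB (3.47). Under the 12.0% of all genes stood genes named by a sequence feature with 125 of 1152, led by FAM131B (4.89) and STUM (2.71), the LOC loci with 102 of 931, led by LOC124901968 (1.52) and LOC105376010 (2.05), and the unclassified genes with 707 of 8941, led by NOVA2 (3.57) and EEF1A2 (1.75). Of the small RNA genes, a class with 2 members, 2 of 165 (1.21%) were called higher and 7 lower. All these leading genes had an edgeR adjusted p of 2.69e-11 or less.

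Closer relatives, in 26 paralogue families put together after the members were known, showed the range of states that a family can hold. Of 188 other family genes, 50 were at 0 in all 6 libraries and 73 were tested, of which 27 (37.0%) were called higher, against 12.0% of all tested genes. By edgeR 0 were called lower, with 5 lower at an unadjusted p under 0.05 and 0 by DESeq2. The family genes were not divided by count level, and 29.2% of all tested genes with a mean under 50 counts were called higher. The sodium channel family was the fullest example. SCN3A, a channel of fetal brain from the same cluster on chromosome 2, had 6, 2 and 6 counts in untreated and 97, 102 and 104 in VPA-treated libraries (log2 fold change 4.28 ± 0.245 SE, edgeR adjusted p = 1.97e-12). SCN2A, the main channel of excitatory axons, went from 24, 14 and 24 to 49, 52 and 60 (1.25 ± 0.210, adjusted p = 2.33e-05). SCN4A (1.85) and SCN9A (1.01) were also called higher, SCN8A (0.64) passed the adjusted p but not the fold change, and SCN11A did not pass (-0.74, edgeR adjusted p = 0.0879). SCN10A was at 0 throughout and SCN7A had 0, 1 and 0 against 7, 4 and 2.

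**Figure D3:**
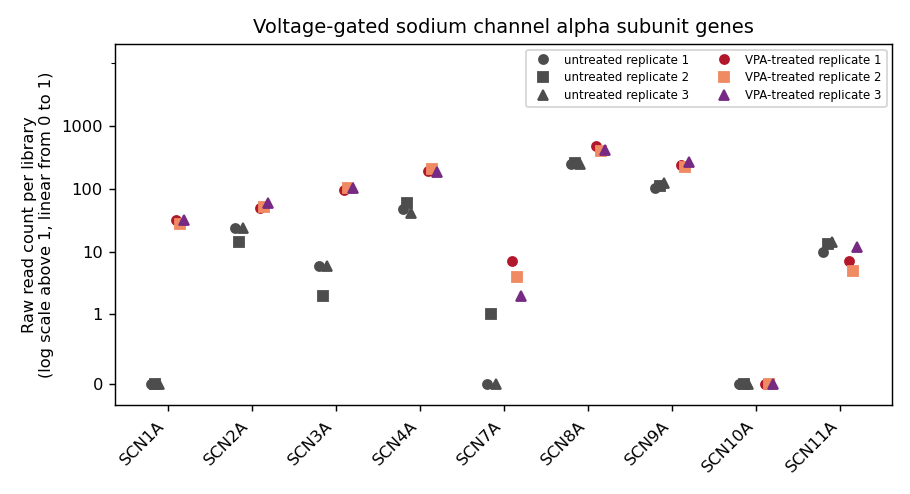
Raw counts per library of 9 voltage-gated sodium channel alpha subunit genes, on an axis that is logarithmic above 1 and linear from 0 to 1. SCN1A starts from 0 in untreated cells, SCN3A from 2 to 6, and SCN10A is at 0 in all 6 libraries.

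Other families were as mixed. The somatostatin receptors SSTR1 (2.58) and SSTR2 (1.29) were called higher, SSTR5 went from 0, 1 and 0 to 7, 4 and 6, and SSTR4 was at 0. Among junctophilins, JPH3 of brain was called higher (1.43) and JPH1 was not (0.18). In the desmosomal cadherins no other gene was called, and DSG2, the neighbour of DSG3, had 4859, 4910 and 4820 counts in untreated and 5374, 5420 and 5588 in VPA-treated libraries, a log2 fold change of 0.05 (edgeR adjusted p = 0.309). The kallikreins KLK1 (2.96) and KLK8 (2.44) were called higher and KLK14 was not. PDGFB (4.14), the sialyltransferases ST8SIA1 (3.65), ST8SIA4 (1.08) and ST8SIA6 (2.55), the olfactomedins OLFM1 (2.32) and OLFM2 (2.33), FOXA3 (1.90) and HBQ1 (1.33) were called as well. FOXA1 (-0.06), PDGFC (0.10) and SV2A (0.88) were not called.

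The genes on either side of the members were tested next. Of 194 nearest genes with at least 1 count, 110 were tested and 32 (29.1%) were called higher, against 12.0% of all tested genes. By edgeR 0 were called lower, with 16 lower at an unadjusted p under 0.05 and 0 by DESeq2. Their median log2 fold change was 0.29, and that of all tested genes 0.01. Because calls were more frequent among genes with few counts, the neighbours were also divided by mean count. Of neighbours under 50 counts 13 of 18 were called higher, with 29.2% among all genes of that level, and of those with 50 or more 19 of 92, with 7.63% among all. Neighbours of protein-coding members were called higher in 24 of 81 and those of non-coding members in 9 of 30.

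**Figure D4:**
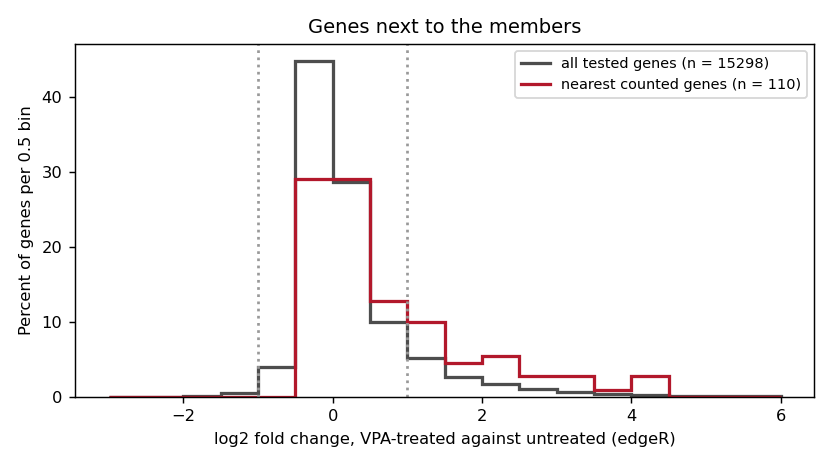
Distribution of the edgeR log2 fold change for the 110 tested genes nearest to a member and for all 15298 tested genes, in percent of genes per bin of 0.5, with dotted lines at the fold change threshold. The neighbours reach further to the right, with a median of 0.29, and 0 of them lie under -0.5.

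Around the 10 leading members, neighbours differed from pair to pair. SCN9A, 46024 bp from SCN1A, was called higher (1.01), and TTC21B on the other side was not (-0.03). RAC2, a GTPase of blood cells 4722 bp upstream of SSTR3 on the same strand, was called higher with 5, 3 and 6 against 23, 37 and 29 counts (2.52 ± 0.344 SE, edgeR adjusted p = 1.69e-06), and C1QTNF6 on its other side was not (0.12). ARHGAP40 beside SLC32A1 was called higher (1.90), with ACTR5 at -0.15 on the other side. Of the pair around SV2C, IQGAP2 missed the fold change threshold narrowly (0.99) and LOC441087 did not pass (0.74). ERCC6 beside SLC18A3 (-0.16), LENG8-AS1 beside TTYH1 (0.49) and SRRM1 beside NCMAP (-0.38) were not called. DSG4, C10orf53, LAIR1, NCMAP-DT, KLKP1, KLK5, LINC01480 and CEACAM6 had too few counts to test, and all of them were at 0 in untreated libraries. SCN1A-AS1 and LOC102724058, LOC105379042 and LOC124904770 overlap leading members and were at 0 in all 6 libraries, and SV2C-AS1 had 1, 1 and 0 counts with VPA.

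Members of lower counts also lay beside genes that were called higher, singled out here after their values were seen. NMRK2, 4987 bp from ATCAY, went from 4, 3 and 3 counts to 79, 66 and 79 (4.32 ± 0.273 SE, edgeR adjusted p = 1.13e-11). Other large changes lay further off, in WNT2, 156967 bp from CFTR (4.05), COL11A1, 879547 bp from OLFM3 (4.08), SLCO3A1, 221446 bp from ST8SIA2 (3.93), and PRKCB, 77048 bp from CHP2 (3.47). The nearest counted gene could lie as far off as 2365005 bp, as LOC105376010 from LINGO2. DPP4, which starts 642 bp from DPP4-DT on the other strand, was called higher (2.62). CXCL14 and SLC25A48 are 181 bp apart on opposite strands, and SLC25A48 was called higher (1.17).

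Overlap with another gene touches the reading of some members. A listed gene overlaps 48 of the 98, a gene with a count 25, and a tested gene 15. The libraries were made by a strand-specific protocol, but the strand setting of the counting is not given in the sources used here, so reads of overlapping genes cannot be assigned with certainty. Of the 15 overlapping genes tested, 7 were called higher, against 12.0% of all tested genes, without a division by count level. Among the 10 that overlap non-coding members 6 were called higher, and among the 5 at protein-coding members 1, HTR1B in LOC105377864 (2.71). CRMA, on the strand opposite to MIR1-1HG, went from 4, 11 and 8 to 154, 112 and 112 counts (3.90 ± 0.246 SE, edgeR adjusted p = 1.4e-11). ST8SIA1 overlaps LOC112268093 (3.65), FIGNL2 overlaps FIGNL2-DT (2.89), VWA5B1 overlaps LOC124903870 (2.08), SOCS3 overlaps SOCS3-DT (1.18) and ZFYVE28 overlaps LOC107986249 (1.18). Not called were ZFHX3 at LOC124903716 (-0.20), PDE4D at PART1 (0.48) and AP1G2-AS1 at JPH4 (0.15), among others. A counted same-strand gene that does not overlap lay within 10 kb upstream of 4 members, SSTR3, JPH2, CD79B and B3GNT6. SLC18A3 overlaps CHAT on the same strand, and members without a known strand could not be judged. Reads from such genes in the counts of the members were not tested.

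Members lay within 1 Mb of each other in 11 pairs, 3 of them formed by SLC18A3, WDFY4 and C10orf71 on chromosome 10. KLK4 and KLK10 shared the kallikrein cluster of chromosome 19, TTYH1 and NLRP2 were 528380 bp apart on the same chromosome, and FABP7 and TRDN 432265 bp apart on chromosome 6. Chromosome 1 had 9 members and chromosome 20 had 8, of 4168 and 1132 listed genes.

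Promoter sequence, which the rule did not read, was taken from hg38 at GENCODE 44 starts for 66 of the 67 protein-coding members. The ratio of observed to expected CpG, in which CpG islands exceed 0.6, had a median of 0.34 in the members (quartiles 0.197 and 0.642). It was 0.788 in 13693 coding genes counted in every untreated library and 0.232 in 2416 coding genes at 0 in all 6 libraries. A ratio of 0.6 or more was found in 17 members (25.8%), in 72.3% of the counted genes and in 17.1% of those at 0. These are descriptions over genes, which are not replicates. Most members thus had a ratio under 0.6, and a minority that included SV2C, SLC32A1, SLC18A3, TTYH1 and NCMAP had 0.6 or more. The ratio takes no account of G and C content, which was 45.7% in the TTYH1 window.

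**Figure D5:**
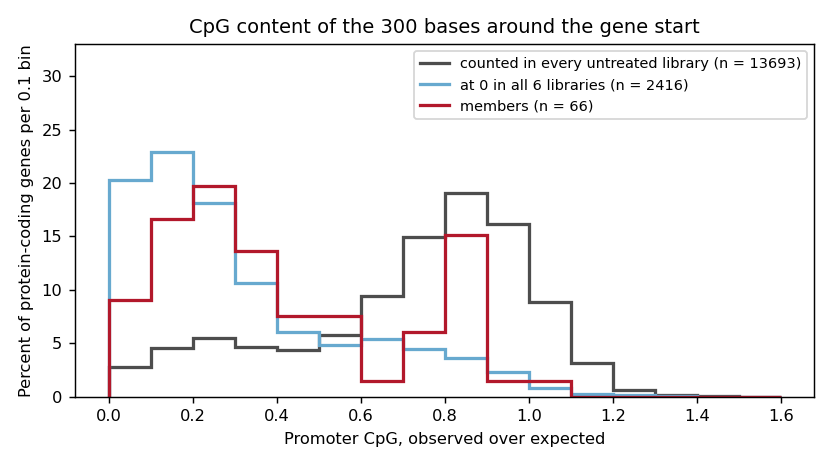
Observed over expected CpG in the 300 bases from 250 before to 50 after the GENCODE start, in percent of genes per bin of 0.1, for the protein-coding members and for coding genes counted in every untreated library or at 0 in all 6. The members peak between 0.2 and 0.3, near the peak of genes at 0 between 0.1 and 0.2, and have a smaller peak between 0.8 and 0.9, where counted genes peak.

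The 4 motifs were counted in these GENCODE windows, which differ from the printed RefSeq windows where the starts differ. The GC box stood in 21 members (31.8%), in 53.0% of all autosomal coding promoters and in 21.0% of those at 0 in all 6 libraries. The TATA box stood in 10 members (15.2%), against 10.8% of all and 24.4% of those at 0. TGACGT was found in 2 members (3.03%), CLXN and PPP1R3A and not KLK4, whose printed window is at another start, and CACGTG in 3 (4.55%). Among all they stood in 8.84% and 8.24%, and among those at 0 in all 6 libraries in 4.39% and 5.55%. Transcripts of the members had a median length of 3150 bases, those of counted genes 3888 and those of genes at 0 in all 6 libraries 1716. The rule read raw counts, which also depend on transcript length, so these lengths are not independent of the choice of members.

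Many neuronal genes are held off in other tissues by REST, a zinc finger repressor that recruits deacetylases to a site called RE1. The core of that site was searched as TTCAGCACC, a gap of 2 bases and GGACAG on both strands within 5 kb of each GENCODE start, with at most 1 mismatch in the 15 fixed bases. The search was added after the members were known. It found 3 of 66 members (4.55%), 1.13% of all autosomal coding genes and 1.95% of coding genes at 0 in all 6 libraries. The matches are shown 5′ to 3′ on the strand of the motif, with its fixed positions in capitals, because they sit near a neuronal channel, a neuronal secreted protein and a globin.
SCN1A, after the start, 1 mismatch: TTCAGTACCttGGACAG
OLFM3, before the start, 1 mismatch: TTCAGCACCgcGGCCAG
HBA1, before the start, 0 mismatches: TTCAGCACCggGGACAG
The SCN1A match is at chr2:166148088-166148104, the OLFM3 match at chr1:101997071-101997087 and the HBA1 match at chr16:174440-174456 in hg38, all on the minus strand. On the scale of the gene they lie at position 1110 from the start in SCN1A, -161 in OLFM3 and -2240 in HBA1, where negative values are upstream. The SCN1A start used for this search is not the start of the SCN1A window printed above. A match of letters does not show a bound site. REST itself did not pass the test, with 728, 698 and 627 counts in untreated and 662, 750 and 709 in VPA-treated libraries (log2 fold change -0.07, edgeR adjusted p = 0.319).

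A list of 53 genes that keep others silent, from deacetylase complexes, Polycomb, histone H3 lysine 9 and DNA methylation, had few genes called. Of 52 tested, 2 were called higher, HDAC9 from 17, 40 and 31 to 94, 107 and 85 counts (1.58 ± 0.199 SE, edgeR adjusted p = 7.57e-07) and RCOR2, a neural partner of the demethylase KDM1A, from 89, 63 and 89 to 217, 226 and 220 (1.34 ± 0.117, adjusted p = 2.09e-09). By edgeR 0 were called lower, with 29 lower at an unadjusted p under 0.05 and 0 by DESeq2. The list had a median log2 fold change of -0.14, and by adjusted p alone 8 of its genes were higher and 27 lower, whereas of all tested genes 32.9% were higher and 30.0% lower. HDAC1 (0.02) and HDAC2 (0.00) did not pass the test, HDAC3 passed the adjusted p with -0.26, and SIN3A with -0.15. The largest drops were in MBD3 (-0.78), BMI1 (-0.76), CHD3 (-0.64), CBX5 (-0.60) and TRIM28 (-0.56). Each passed the adjusted p but not the fold change.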

How the data were processed

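RNA of HEK293T cells was sequenced after a strand-specific library protocol (6 libraries). Reads were trimmed by the authors using SOAPnuke and placed on hg38 by STAR (version 2.7.10b per the submitters' processing notes); the deposited values are raw counts per gene from HTSeq (2.0.1 per those notes), without normalization. Lines that name no gene were left out; reads off any gene were 6.80% to 7.69% of those listed per library, ambiguous reads 1.97% to 2.10% and non-unique reads 2.81% to 2.92%. The annotation and strand setting of the counting are not given in the sources used here.

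Members were taken from the counts by the rule, which left out 11 genes by symbol. The members, classes and lists were chosen with earlier results of these data known. The 26 families, the tissue sorting, the division by count level and the RE1 search were added after seeing the members. Genes were tested over the whole table with edgeR 4.0.16 in R 4.3.3 (TMM, filterByExpr with a count minimum of 10, robust quasi-likelihood fit, prior count 0.125, Benjamini-Hochberg adjustment) and with DESeq2 1.42.0 as an alternative, and the fit was tested on simulated counts. RefSeq on GRCh38.p14 gave types and coordinates (96 members found by symbol, 1 by gene ID and 1 by synonym). Counts of 0 were bounded with 3 counts over the untreated group, for counting error only.

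Genes were named by a rule: members whose mean count was 5 or more, the 3 leading members of each class with at least 3, the 2 called relatives of smallest p per class, the neighbours of the 10 leading members, those at and just outside the threshold, the reverse genes, and markers and silencing genes called. Others named with values were singled out after their values were seen. The other alternatives were the least count of the rule, the scaling, the filter, the adjusted p alone, a replicate block and the omission of each library in turn. Replicate numbers were not taken as pairs. ChIP-seq, Hi-C and imaging data were not analysed here. A few genes that the rule names are not reported here.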

Additional observations from a re-analysis of the deposited data

How the results depend on the processing

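The number of members follows the least count asked for, with 98 at 2 counts, 333 at 1, 51 at 3, 19 at 5 and 4 at 10. Without 1 library it lay between 153 (without VPA-treated replicate 3) and 197 (without untreated replicate 3), and each of the 6 libraries moved it by over 1.5 times, since fewer libraries had to meet the rule. The reverse genes numbered 4, and 29 at 1 count and 0 at 3, 5 and 10 counts, with 8 to 11 when 1 library was left out. By edgeR, 1833 genes were called higher and 77 lower over the whole table, with 1874 to 1961 and 83 to 110 when 1 library was left out. By adjusted p alone there were 5037 higher and 4591 lower. With library totals as scaling 38 were lower, and without the filter 162. Over all tested genes, the median on the log2 scale was 0.01 after TMM, -0.01 with DESeq2 size factors and 0.14 with library totals, so directions near 0 depend on the scaling. Relatives of the 17 named classes called higher were 1007, with 1018 to 1055 without 1 library and 2281 by adjusted p alone. Those called lower were 27, with 29 to 41 without 1 library (41 without VPA-treated replicate 1), 15 with library totals, 51 without the filter and 1015 by adjusted p alone. Nearest neighbours called higher were 32 (30 to 33 without 1 library, 65 by adjusted p alone) and lower 0 (15 by adjusted p alone). Of the silencing list 2 were higher and 0 lower under each library left out, and 8 and 27 by adjusted p alone. Same-numbered libraries correlated at 0.139, 0.0214 and 0.0805 in their deviations, so the numbers were not taken as pairs, and the replicate block gave 1835 higher and 77 lower genes, 1007 and 27 relatives, 32 and 0 neighbours and 2 and 0 silencing genes. Of 118 comparisons with an alternative, 85 kept the count within 1.5 times and 33 did not. At exactly 2 counts in a library, 1 read less would leave a gene out of the members.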

Other observations

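Some marker genes outside the gene groups of the members also differed between the conditions. PAX2, a transcription factor of developing kidney, had 29, 28 and 28 counts in untreated and 149, 146 and 148 in VPA-treated libraries (log2 fold change 2.26, edgeR adjusted p = 6.8e-12). NEFL, a neurofilament gene that this line expresses, had 918, 943 and 998 against 2076, 2188 and 2203 (1.06), and EPCAM, an epithelial adhesion gene, 21, 19 and 32 against 46, 66 and 57 (1.11). VWF, the clotting factor of endothelium, had 0, 3 and 0 against 13, 20 and 17 (3.79, edgeR adjusted p = 1.42e-05), and the 3 endothelial markers together had 0 to 4 counts in untreated and 18 to 25 in VPA-treated libraries. LRP2 had 806, 850 and 933 against 1518, 1533 and 1545 (0.71) and made up nearly all of the kidney segment list, which summed to 806 to 935 and 1523 to 1548. The 4 germ cell markers summed to 1 in each untreated library and to 1 to 2 with VPA.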
